A study of Mus musculus with 21 samples.

Results

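The ribosomal protein genes were the 42 genes of 12393 measured whose symbol in the platform annotation was Rpl or Rps followed by a digit, or Rplp0, Rplp2 or Rpsa, on a probe set that carried no other symbol. Where a gene had several such probe sets, the brightest over all arrays stood for it. There were 22 large-subunit and 20 small-subunit genes on 91 probe sets. S6 kinases, pseudogenes and paralogs with an l ending were left out (11 symbols), and 27 further ribosomal symbols occurred only on probe sets that listed several symbols and are not named from them.

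RNA was measured with 21 microarrays on RNA of left lungs taken whole from BALB/c mice, all female and 8 weeks old. Each mouse had received 1 aspiration into the trachea of MACA (a crude antigen of the fungus Metarhizium anisopliae, 20 µg), of bovine serum albumin (BSA, 20 µg), both in 50 µl of Hank's balanced salt solution (HBSS), or of 50 µl HBSS alone, and lungs were taken after 3 h or 12 h. At 3 h there were 4 arrays after MACA and 3 each after BSA and HBSS, and at 12 h there were 3 arrays after MACA and 4 each after BSA and HBSS, which the labels call biological replicates. All groups had the aspiration and the salt solution in common, no untreated lung was among them, and the labels set an agent of high against one of low allergenicity.

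A ribosome joins a large and a small subunit, each built from ribosomal RNA and ribosomal proteins of which most occur once. The small subunit reads the mRNA, the large subunit forms the peptide bond, and its acidic stalk recruits the translation factors. In vertebrates the mRNAs of ribosomal proteins and of several translation factors start with a tract of pyrimidines, the 5′ terminal oligopyrimidine (TOP) motif, through which growth signals via mTOR control their translation more than their abundance. Ribosome biogenesis, by contrast, needs nucleolar processing factors and RNA polymerase I, many of which are transcriptional targets of Myc.

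To show that tract, the 30 bases around the annotated start of transcription (15 before it, 15 from it on) are given for some of the members with a difference in the comparisons below. They are from RefSeq on GRCm38.p6, 5′ to 3′ on the strand of the gene. Capitals mark the longest run of C and T in each window. The first 6 were higher after MACA than after HBSS at 12 h, the next 4 were lower, and the last 2 were those that differed at 3 h. Rpl27 and Rps2, higher at 12 h by smaller folds, also have windows, which are not printed.
Rpl41 (chr10:128549154-128549183, - strand): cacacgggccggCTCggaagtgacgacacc
Rps25 (chr9:44407699-44407728, + strand): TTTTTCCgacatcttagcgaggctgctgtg
Rps26 (chr10:128626492-128626521, - strand): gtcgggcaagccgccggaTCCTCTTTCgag
Rpl35 (chr2:39005117-39005146, - strand): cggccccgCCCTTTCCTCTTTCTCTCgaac
Rpsa (chr9:120127751-120127780, + strand): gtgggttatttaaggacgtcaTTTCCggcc
Rpl7a (chr2:26910792-26910821, + strand): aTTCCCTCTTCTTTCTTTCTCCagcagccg
Rpl37 (chr15:5116598-5116627, + strand): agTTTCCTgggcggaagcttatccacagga
Rps28 (chr17:33824548-33824577, - strand): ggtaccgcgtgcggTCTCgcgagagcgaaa
Rps4x (chrX:102189377-102189406, - strand): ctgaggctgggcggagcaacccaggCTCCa
Rpl38 (chr11:114668565-114668594, + strand): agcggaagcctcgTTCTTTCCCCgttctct
Rpl12 (chr2:32961697-32961726, + strand): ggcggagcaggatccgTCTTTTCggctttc
Rpl27a (chr7:109519180-109519209, + strand): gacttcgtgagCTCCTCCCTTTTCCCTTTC
In these windows the start lies at base 16, so the longest tracts of Rpl35, Rpl38, Rpl7a and Rpl27a span it. That of Rpl12 begins next to it. Those of Rpl41, Rps28 and Rps4x are short, although that of Rps28 also spans the start. A C exactly at the start followed by at least 4 pyrimidines was found in 8 of the 37 members with a window (21.6%) and in 2.37% of the 9887 genes with a window and a probe set. It was found in 1 of 8 members that were higher at 12 h, 1 of 4 that were lower and 6 of 25 that did not pass. The letters CTTTC stood in the windows of 10 of 37 members (27.0%) against 3.41% of all, and GAAAG, the same letters on the other strand, in 1 of 37 against 2.89%. None of the 35 ribosome biogenesis genes with a window, and 3 of 12 other TOP mRNAs, had the C and pyrimidines at the start. Starts were taken as annotated, and a tract displaced by a few bases is not counted.

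The deposited values were linear intensities whose array medians ran from 92.95 to 286.6, and they were taken as not scaled between arrays, which the sources used here do not state. They were quantile normalized and are given as log2(intensity + 16), on which the noise level was 5.83. Folds on this scale understate the change of dim probe sets, and the level of one probe set cannot be set against that of another, since probes bind with different strength. Tests were made with limma over all 12393 genes, and "passed" means a Benjamini-Hochberg adjusted p under 0.05. The tissue markers were those of lung (9 of 9 well above noise in every group). The arrays fell into a pair of technical sets by the ratio of the probe sets of 1 spiked hybridization control, called here the control-ratio sets: 13 arrays at 1.62 to 1.91 and 8 arrays at 0.939 to 1.22. The low set held all HBSS 12 h arrays, BSA 12 h replicates 3 and 4 and MACA 3 h replicates 3 and 4. MACA 12 h lay wholly in the high set, so its difference from HBSS at 12 h has no value within a set.

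Ribosomal protein probe sets gave some of the strongest signals of these arrays. Of the 42 members, 36 were among the 1240 brightest genes, and 33 had a mean above 12, between 12.19 and 13.29. Rps29 (13.16 to 13.38 over the 21 arrays), Rpl38 (13.13 to 13.53) and Rplp2 (12.83 to 13.29) were the brightest. All 42 lay above noise on every array. Together they took between 2.82% and 3.91% of the deposited intensity of an array summed over the 12393 genes. That sum took 1 probe set a gene, with negative values set to 0, and left out all other probe sets. This share averaged 3.22% ± 0.26 (SD, n = 4) after MACA, 3.29% ± 0.038 (n = 3) after BSA and 3.41% ± 0.52 (n = 3) after HBSS at 3 h. At 12 h it averaged 3.31% ± 0.17 (n = 3) after MACA, 3.38% ± 0.44 (n = 4) after BSA and 3.08% ± 0.23 (n = 4) after HBSS. The ranges of all 6 groups overlapped.

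**Figure D1:**
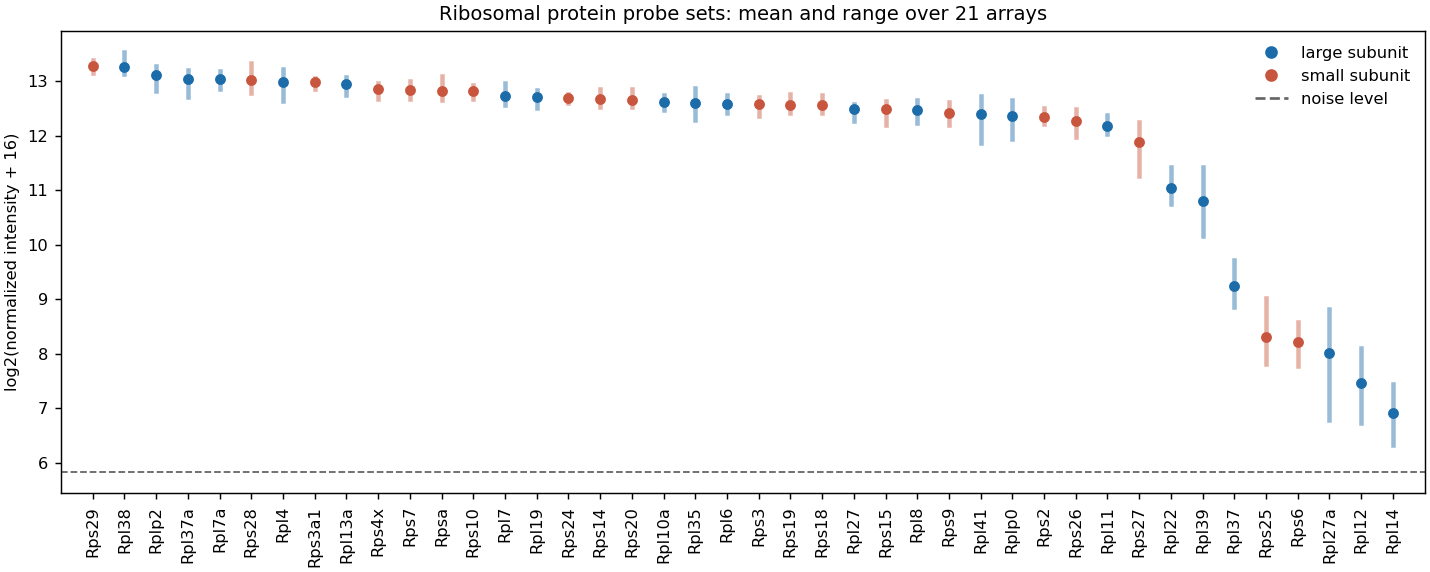
Mean (point) and range over 21 arrays (bar) of each of the 42 ribosomal protein probe sets, as log2(normalized intensity + 16), with the noise level as a dashed line. Of the 42, 33 form a plateau above 12, and 9 probe sets are dimmer and mostly wider, down to Rpl14 at 6.91.

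The other 9 probe sets had a mean below 12. Rpl14 (6.91), Rpl12 (7.47) and Rpl27a (8.01) were the dimmest, followed by Rps6, Rps25, Rpl37, Rpl39, Rpl22 and Rps27, which ended at 11.89. Rpl12, Rpl27a, Rps25 and Rpl37 are also listed, together with further symbols, on other probe sets, which are described beside the results that rest on the dim ones.

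The members varied little. Their median within-group SD was 0.09 log2 units, against 0.13 for the others of the 1240 brightest genes and 0.21 for all genes. These sets are not matched on brightness: the members' median level was 12.52 to 12.67 by array, near the top of the scale, where signals may be compressed, which was not tested. Of the members, 26 of 42 ranged by less than 0.5 over all 21 arrays. Rps24 was the steadiest, at 12.60 to 12.77 with a median of 12.70, followed by Rps29 and Rps3a1. The widest were Rpl27a (6.79 to 8.82, SD 0.53), Rpl39 (10.17 to 11.42, SD 0.42) and Rpl12 (6.72 to 8.10, SD 0.34). The median over the members moved little between groups: it was 12.56 ± 0.045 (SD, n = 4) after MACA, 12.58 ± 0.051 (n = 3) after BSA and 12.60 ± 0.017 (n = 3) after HBSS at 3 h. At 12 h the medians were 12.59 ± 0.0089 (n = 3), 12.63 ± 0.038 (n = 4) and 12.60 ± 0.060 (n = 4).

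At 3 h after MACA, the ribosomal protein genes as a whole stood close to their values after HBSS. Their median log2 fold was -0.02, as was that of all genes (with median scaling -0.12 against -0.045), and 40 of 42 had a fold smaller than 0.25 in either direction. Of the members, 1 rose and 1 fell, while 8.12% of all genes tested passed, 4.84% higher and 3.28% lower. The interval of the fold lay within 0.5 log2 units of 0 for 37 members. In whole lung, fewer cells of a type and less RNA per cell cannot be told apart.

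The member that rose was Rpl12, a protein at the base of the stalk. It read 7.71, 8.07, 7.48 and 7.78 in the 4 MACA arrays and 7.04, 7.03 and 6.72 in the 3 HBSS arrays. All MACA values lay above all HBSS values, with a log2 fold of 0.83 ± 0.18 (SE, limma adjusted p = 0.0088). The member that fell was Rpl27a, a large-subunit protein, at 7.11, 7.86, 7.05 and 6.79 after MACA and 8.14, 7.88 and 8.15 after HBSS. The groups did not overlap by a margin of hundredths, and the log2 fold was -0.86 ± 0.22 (limma adjusted p = 0.024). Within the high control-ratio set Rpl12 differed by 0.96 (limma adjusted p = 0.0083) and Rpl27a by -0.57 (adjusted p = 0.20). The Rpl12 call was lost without HBSS 3 h replicate 3. The Rpl27a call was lost without MACA 3 h replicate 3 or 4, or HBSS 3 h replicate 1 or 3.

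Both calls came from dim probe sets, and the probe sets that list the same genes with other symbols did not pass. The pair listing Rpl12 had log2 folds of -0.11 and -0.18 (limma adjusted p = 0.56 and 0.11 over all probe sets), against the positive fold of its own probe set. The one listing Rpl27a had a fold of 0.05 (adjusted p = 0.69). What these probe sets detect in common was not tested.

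At 12 h members differed in both directions. Of 42, 8 were higher and 6 lower after MACA than after HBSS, 33.3% against 20.2% of all genes (10.2% higher, 10.1% lower) and 29.2% of the others of the 1240 brightest genes. The median log2 fold was 0.01, against -0.0010 for all genes, and no member changed by 2-fold. The higher ones were 4 large-subunit and 4 small-subunit genes, and the lower ones 3 and 3.

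**Figure D2:**
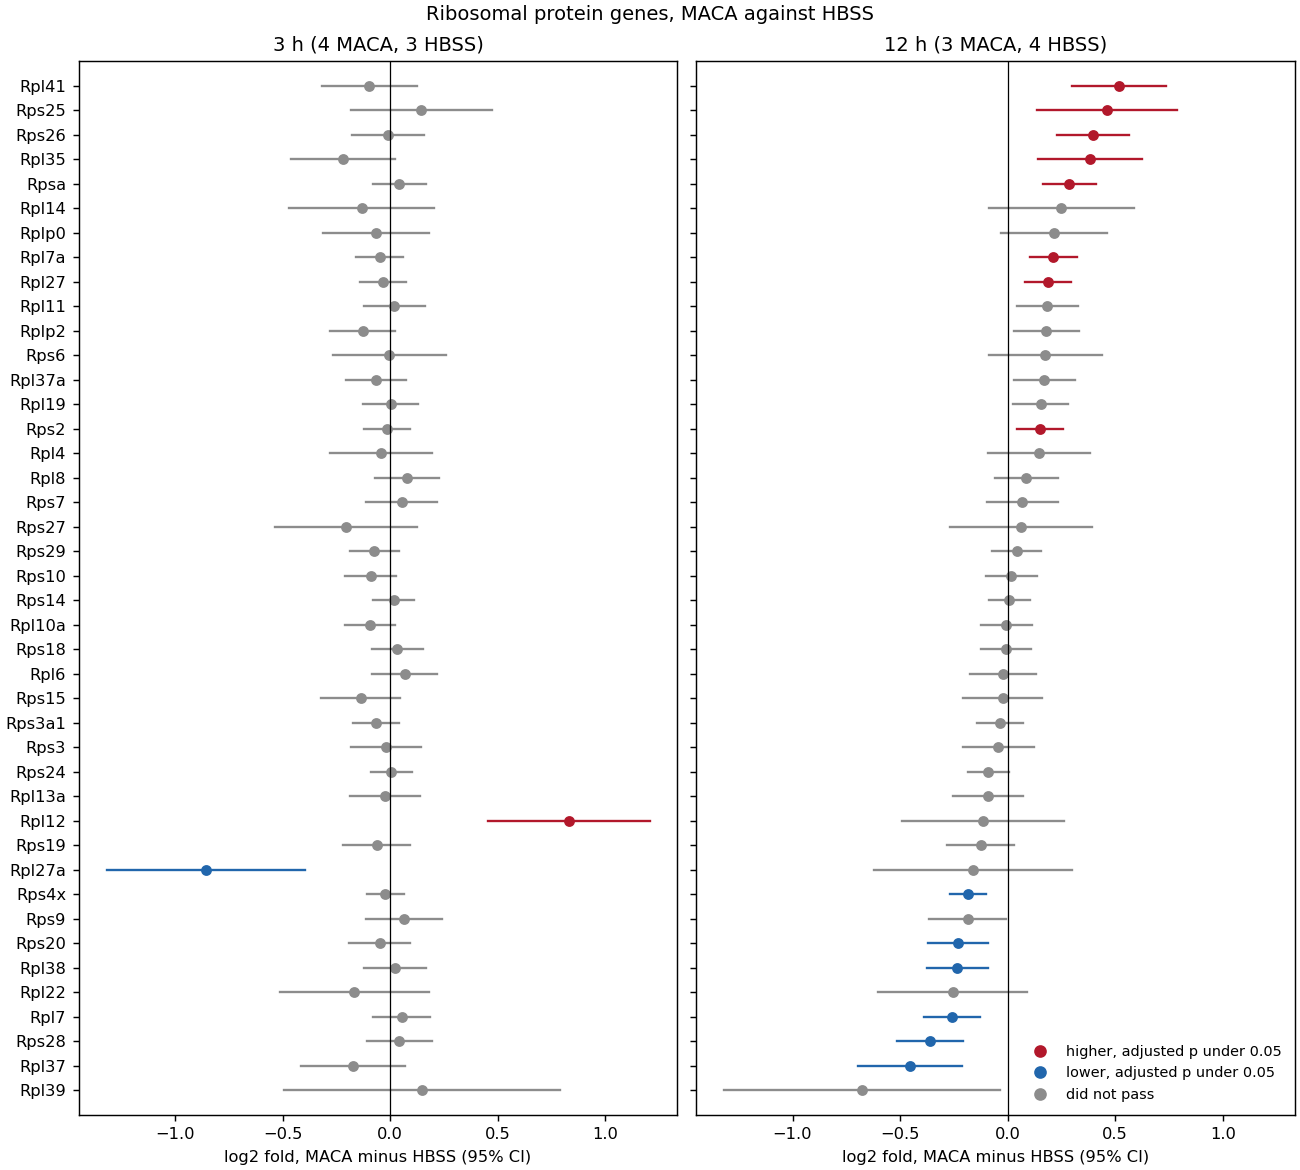
Log2 fold of each of the 42 members, MACA minus HBSS, with its 95% confidence interval, at 3 h (left) and 12 h (right), ordered by the fold at 12 h. At 3 h all but Rpl12 and Rpl27a lie near 0, and at 12 h 8 members in red are higher and 6 in blue are lower.

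Rpl41, the smallest ribosomal protein, showed the largest rise. It read 12.62, 12.73 and 12.43 in the MACA arrays and 12.20, 11.87, 12.06 and 12.16 in the HBSS arrays, without overlap (log2 fold 0.52 ± 0.10, limma adjusted p = 0.0025). The laminin receptor gene Rpsa, a small-subunit protein also found at the cell surface, read 12.87, 13.10 and 13.04 against 12.82, 12.67, 12.70 and 12.68. Its lowest MACA array was just above the highest HBSS array (0.29 ± 0.058, limma adjusted p = 0.0028).

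Rps26, a small-subunit protein near the mRNA exit channel and a Diamond-Blackfan anaemia gene, was uniform after MACA, at 12.49, 12.45 and 12.48, and read 12.21, 12.11, 12.02 and 11.98 after HBSS. The groups were well apart (0.39 ± 0.079, limma adjusted p = 0.0025). Rpl7a read 13.06, 13.19 and 13.13 against 12.92, 12.87, 12.99 and 12.89, also without overlap (0.21 ± 0.051, limma adjusted p = 0.0087). Rps25, a small-subunit protein used by some viral entry sites, rose by 0.46 ± 0.15 (limma adjusted p = 0.044) on a dim probe set. A probe set that lists Rps25 with other symbols had a fold of -0.08 (adjusted p = 0.61 over all probe sets). Rpl35, which lies at the peptide exit, rose by 0.38 ± 0.11 (limma adjusted p = 0.026) and is taken up with the control-ratio sets.

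Among the members that fell, Rps28 read 12.99, 12.79 and 12.92 after MACA and 13.15, 13.33, 13.29 and 13.29 after HBSS. All MACA arrays were below all HBSS arrays (log2 fold -0.36 ± 0.072, limma adjusted p = 0.0025). Rpl7 read 12.56, 12.60 and 12.65 against 12.81, 12.97, 12.83 and 12.85, without overlap (-0.26 ± 0.062, limma adjusted p = 0.0081). The X-linked Rps4x read 12.67, 12.80 and 12.77 against 12.97, 12.92, 12.92 and 12.90, a small but clean separation (-0.18 ± 0.040, limma adjusted p = 0.0042).

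Rpl38, known for its part in the translation of Hox mRNAs in the embryo, read 13.15, 13.15 and 13.40 against 13.47, 13.53, 13.48 and 13.37. One MACA array reached into the HBSS range (-0.23 ± 0.067, limma adjusted p = 0.021). Rps20 fell by 0.23 on the log2 scale (limma adjusted p = 0.020) and Rpl37 by 0.45 (adjusted p = 0.010), both without overlap. Of the 3 probe sets that list Rpl37 with other symbols, 1 was lower as well (-0.28, limma adjusted p = 0.030) and the others did not pass (-0.10 and -0.34).

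**Figure D3:**
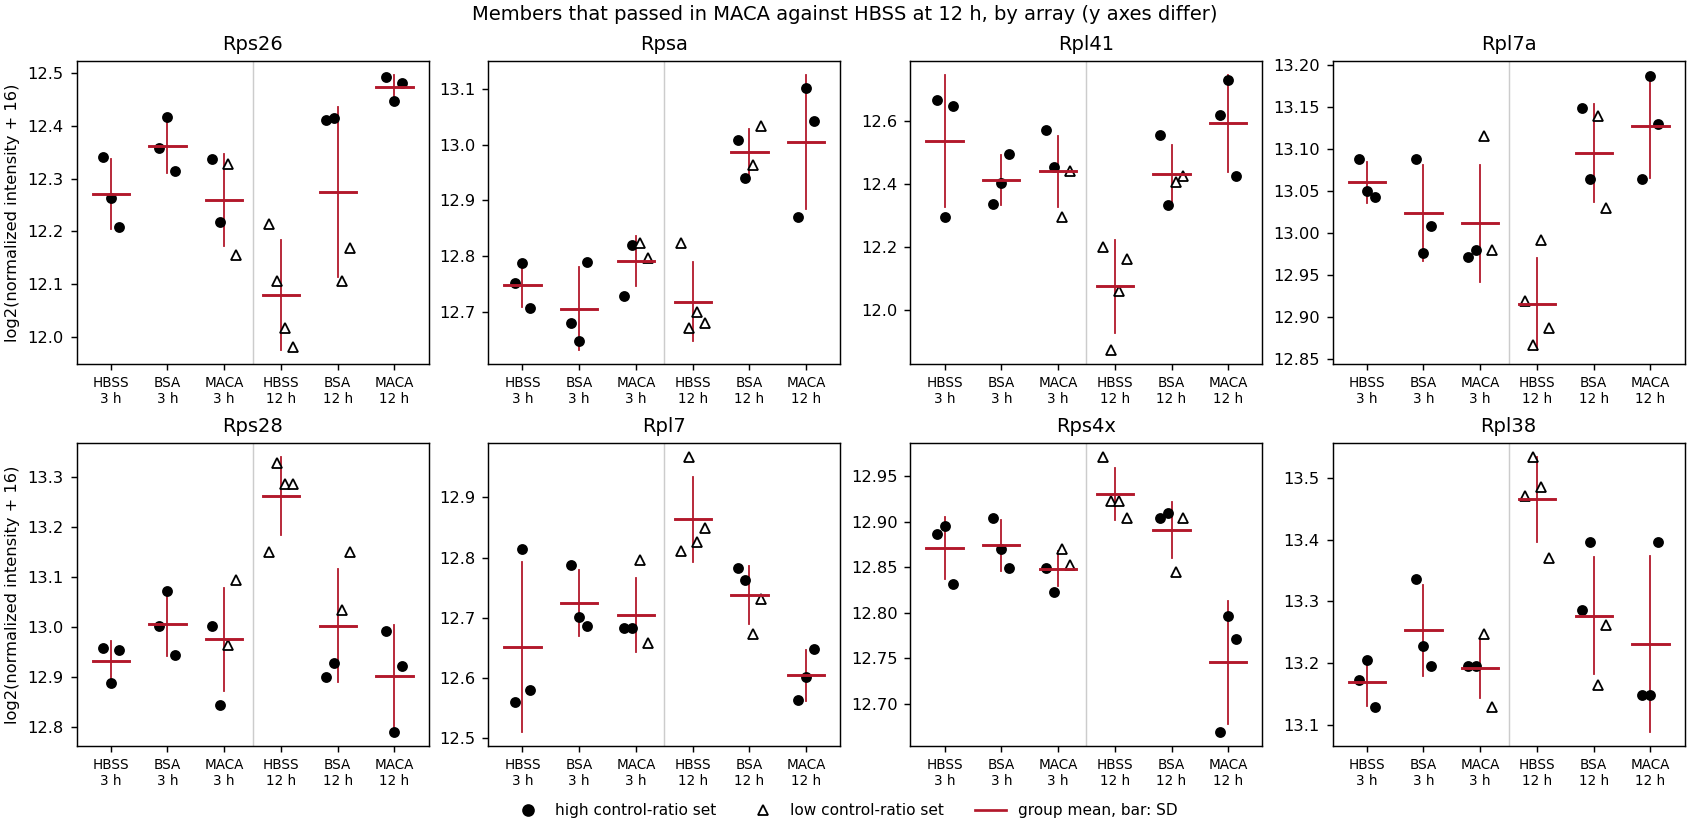
Values of 8 members that passed in MACA against HBSS at 12 h, 1 point an array, as log2(normalized intensity + 16), by group; filled circles are arrays of the high and open triangles of the low control-ratio set, red lines are group means and red bars SDs, and the y axes differ. In the top row MACA 12 h stands above HBSS 12 h, and in the bottom row HBSS 12 h has the highest mean of the 6 groups.

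How firmly these 14 calls stood differed by gene. Rpl41, Rps26, Rpsa, Rps28, Rpl7 and Rps4x passed in each of the 7 fits that left out 1 array of either group. The total fell from 14 to 6 without MACA 12 h replicate 2, which also ended the calls of Rpl37, Rpl7a, Rpl38, Rps20, Rpl35 and Rps25. Rpl27 (0.19, limma adjusted p = 0.016) and Rps2 (0.15, adjusted p = 0.047), both higher among the 14, were lost there too. Rpl38 was also lost without MACA 12 h replicate 1 or HBSS 12 h replicate 2, and Rps20 without MACA 12 h replicate 1. Rpl35 was also lost without MACA 12 h replicate 3 or HBSS 12 h replicate 2, 3 or 4, and Rps25 without MACA 12 h replicate 1 or any 1 HBSS 12 h array. Without scaling, where the median of all genes was -0.57, 31 members were lower and 0 higher, and the member median was -0.58. With scaling to the array median, 3 were higher and 1 lower, and the member median was 0.11 above that of all genes.

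With the control-ratio set as a term in the fit, 6 members were higher and 3 lower at 12 h, and 7 of the 14 passed in both: Rpl41, Rpsa, Rpl7a and Rps2 among the higher, and Rpl7, Rps4x and Rpl38 among the lower. The others were Rpl11 and Rpl8, both higher. Rps26 went from 0.39 to 0.24 (limma adjusted p = 0.093) and Rps28 from -0.36 to -0.22 (adjusted p = 0.092), and both lost the call. Rpl35 went from 0.38 to 0.002 (adjusted p = 1.0).

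The set itself marked 5 of 42 members (11.9%), against 14.8% of all genes (8.16% higher and 6.64% lower in the low set), a coefficient looked at after seeing the data. Rpl35 read 12.28 to 12.52 in the 8 arrays of the low set and 12.60 to 12.87 in the 13 arrays of the high set, the only member of which the sets did not overlap. Its low minus high difference was -0.38 ± 0.050 (SE, limma adjusted p = 0.00027). Within MACA 3 h it read 12.72 and 12.67 in the high set and 12.28 and 12.29 in the low set, all from mice given the same agent.

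Rpl39, a short protein lining the exit tunnel, went the other way, with 0.89 ± 0.18 (limma adjusted p = 0.0048). Within BSA 12 h it read 10.25 and 10.25 in the high set and 11.39 and 11.42 in the low set. Rpl4, Rps7 and Rps29 were lower in the low set, by -0.34, -0.22 and -0.13. The set term rests on MACA 3 h and BSA 12 h, the only groups with arrays of both sets, and takes the set difference as equal in all groups. Between MACA and HBSS at 12 h, set and agent cannot be told apart, and the part of the set was not tested directly.

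**Figure D4:**
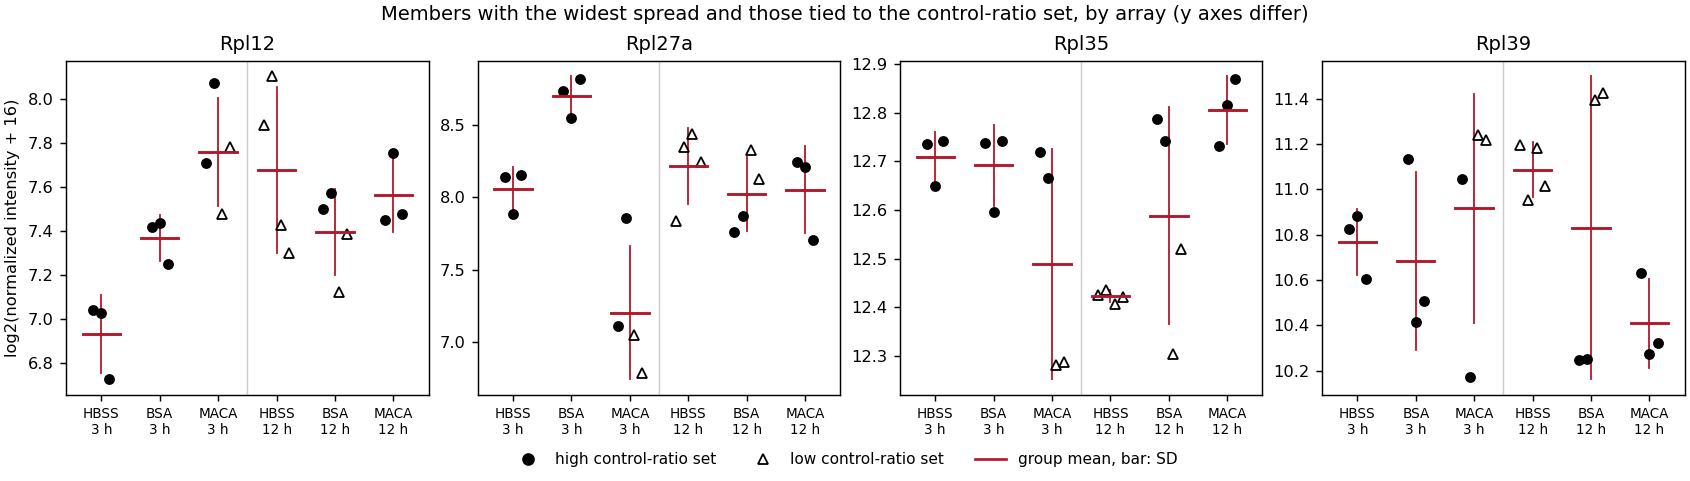
Values by array of Rpl12, Rpl27a, Rpl35 and Rpl39, as log2(normalized intensity + 16), with the same symbols, means and SDs as in the plot of 8 members at 12 h and with differing y axes. The open triangles of the low control-ratio set lie low for Rpl35 and high for Rpl39 within each mixed group, whereas Rpl27a is low in MACA 3 h and high in BSA 3 h.

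After BSA the members stood near their values after the vehicle at 3 h. None of 42 passed against HBSS in limma (2 at an unadjusted p under 0.05), while 0.178% of all genes did (0.161% higher, 0.0161% lower), and the median log2 fold was -0.01. At 12 h, 3 members were higher and 0 lower after BSA, with 1.35% of all genes passing (0.557% higher, 0.791% lower). Rps14, at the platform of the small subunit, read 12.80, 12.75, 12.84 and 12.86 after BSA and 12.67, 12.57, 12.57 and 12.55 after HBSS. The groups were apart by 0.22 ± 0.042 (SE, limma adjusted p = 0.022).

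Rpsa was higher after BSA by 0.27 ± 0.054 (limma adjusted p = 0.029), at 13.01, 12.94, 12.96 and 13.03, and Rpl37a by 0.32 ± 0.062 (adjusted p = 0.026). The Rpsa fold was of the size seen after MACA, and both comparisons share the HBSS 12 h arrays. Within the low control-ratio set, with 2 BSA and 4 HBSS arrays, the folds were 0.26 for Rps14, 0.28 for Rpsa and 0.37 for Rpl37a, and the limma adjusted p was 0.060, 0.072 and 0.065. The count of 3 went to 0 without BSA 12 h replicate 3 or 4 or HBSS 12 h replicate 2 or 3, and to 1 without HBSS 12 h replicate 4. The Rpsa call was also lost without BSA 12 h replicate 1. Without scaling 0 were higher and 20 lower, with the median of all genes at -0.45, and with median scaling 0 passed. With the control-ratio set as a term 6 were higher and 2 lower.

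MACA set directly against BSA gave the only 2-fold difference of any member. At 3 h, Rpl27a read 7.11, 7.86, 7.05 and 6.79 after MACA and 8.74, 8.55 and 8.82 after BSA, a wide gap. The log2 fold was -1.50 ± 0.22 (limma adjusted p = 0.001), it held in each of the 7 fits that left out an array, and within the high set it was -1.22 (adjusted p = 0.045). With these 2 groups fitted alone no member passed (Rpl27a adjusted p = 0.061). Rpl37 was lower too, by -0.42 ± 0.11 (adjusted p = 0.041), so 2 members were lower and 0 higher, with 5.95% of all genes passing (3.5% higher, 2.45% lower).

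Within the high set Rpl37 differed by -0.43 (limma adjusted p = 0.21). Its call was lost without MACA 3 h replicate 2, 3 or 4 or BSA 3 h replicate 1 or 2, leaving 1 call. The probe set listing Rpl27a with other symbols differed by 0.05 between MACA and BSA (limma adjusted p = 0.72 over all probe sets), and the second one with its symbol alone lay under noise.

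At 12 h, 2 members were lower after MACA than after BSA and 0 higher, with 9.65% of all genes passing (4.07% higher, 5.58% lower). Rps14 read 12.61, 12.53 and 12.65 after MACA, below all 4 BSA arrays (-0.21 ± 0.045, limma adjusted p = 0.008). Rps4x was lower by -0.15 ± 0.040 (adjusted p = 0.031). Within the high set, with 3 MACA and 2 BSA arrays, the folds were -0.18 and -0.16 and neither passed. The Rps14 call was lost without MACA 12 h replicate 2, and the Rps4x call without MACA 12 h replicate 1 or 3 or BSA 12 h replicate 2 or 4. Without BSA 12 h replicate 1 the count was 3.

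Between the times, the vehicle group itself moved. After HBSS, 5 members were higher and 2 lower at 12 h than at 3 h, with 7.88% of all genes passing (4.07% higher, 3.82% lower). Rps28 read 12.96, 12.89 and 12.95 at 3 h and 13.15 to 13.33 at 12 h (0.33 ± 0.072, limma adjusted p = 0.012). Rpl12 (0.75), Rpl37 (0.46), Rpl38 (0.30) and Rpl7 (0.21) were higher as well. Rpl41 was lower, from 12.67, 12.29 and 12.65 to 11.87 to 12.20 (-0.46 ± 0.10, adjusted p = 0.014), and so was Rpl37a (-0.34 ± 0.067, adjusted p = 0.0068). The probe sets that list Rpl12 with other symbols had -0.0039 and -0.093, and those that list Rpl37 had 0.15, 0.21 and 0.20, and none passed. Without x probe sets Rpl41 had 0.26, the opposite sign.

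Of these, Rpl37, Rpl38, Rpl7 and Rps28 were among the members that were lower after MACA than after HBSS at 12 h, and Rpl41 among those that were higher. The comparisons share the HBSS 12 h arrays, which were all of the low control-ratio set while the HBSS 3 h arrays were all of the high set. With the set as a term, 2 were higher (Rpl12 and Rpl38) and 1 lower (Rpl37a). The count of 7 fell to 2 without HBSS 3 h replicate 3, to 3 without HBSS 3 h replicate 1 or HBSS 12 h replicate 2 and to 4 without HBSS 12 h replicate 1. Only Rps28 and Rpl37a passed in all 7 fits that left out an array. Without scaling, with the median of all genes at 0.72, 40 members were higher and 0 lower, and with median scaling 2 were higher and 2 lower, with a member median of -0.20 against -0.0070 for all genes.

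The same comparison of times was made in the treated mice. After BSA, Rpsa (0.28 ± 0.058, limma adjusted p = 0.012) and Rps14 (0.17 ± 0.045, adjusted p = 0.038) were higher at 12 h than at 3 h and 0 were lower, with 5.3% of all genes passing (3.37% higher, 1.93% lower). After MACA, Rpl27a (0.85 ± 0.22, limma adjusted p = 0.019), Rpsa (0.21 ± 0.058, adjusted p = 0.026) and Rps2 (0.20 ± 0.051, adjusted p = 0.018) were higher and 0 lower, with 10.7% of all genes passing (5.59% higher, 5.15% lower). Rpsa rose with time after both agents: after BSA its arrays lay between 12.65 and 12.79 at 3 h and between 12.94 and 13.03 at 12 h. After HBSS its fold with time was -0.03 and did not pass, and its interaction of MACA and time did not pass either. The probe set that lists Rpl27a with other symbols had a fold with time after MACA of 0.0094, which did not pass. The interaction of BSA and time was not tested for Rpsa or any other member.

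Within the high control-ratio set the folds with time after BSA were 0.27 for Rpsa and 0.14 for Rps14 (limma adjusted p = 0.12 and 0.26). After MACA they were 0.57 for Rpl27a, 0.23 for Rpsa and 0.22 for Rps2 (adjusted p = 0.18, 0.11 and 0.030), so of these Rps2 alone passed there. Counted over all 42 members, 3 were higher and 0 lower with time after MACA within the high set. Without MACA 12 h replicate 2 the 3 calls after MACA went to 0, and without MACA 3 h replicate 4 or MACA 12 h replicate 3 they went to 1. Without BSA 3 h replicate 2 the 2 calls after BSA went to 0, and without BSA 3 h replicate 1 or 3 or BSA 12 h replicate 3 or 4 they went to 1. Rpl27a was also lost without MACA 12 h replicate 1, and Rpsa after MACA without MACA 3 h replicate 1. Without BSA 12 h replicate 2 the count after BSA was 3.

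The difference between MACA and HBSS changed from 3 h to 12 h, by the interaction of agent and time, for 4 members, with 3.91% of all genes passing (2.07% up, 1.84% down). It went up for Rpl41 (0.61 ± 0.15, limma adjusted p = 0.029) and Rpl35 (0.60 ± 0.16, adjusted p = 0.049) and down for Rpl12 (-0.95 ± 0.25, adjusted p = 0.047) and Rps28 (-0.40 ± 0.10, adjusted p = 0.039). The probe sets that list Rpl12 with other symbols had 0.16 and 0.34 (adjusted p = 0.59 and 0.056 over all probe sets), of the opposite sign. Without x probe sets Rpl41 had -0.30 and Rpl35 -0.036, also of the opposite sign. For Rpl12 the MACA values moved little between the times, 7.48 to 8.07 and 7.45 to 7.76, and the HBSS values went from 6.72 to 7.04 at 3 h to 7.30 to 8.10 at 12 h. With the set as a term only Rpl12 passed (-1.35, adjusted p = 0.049), and Rpl35 came to 0.03. The count was 0 without MACA 3 h replicate 4, HBSS 3 h replicate 1 or 3, MACA 12 h replicate 2 or HBSS 12 h replicate 2. It was 2 without MACA 3 h replicate 3, HBSS 3 h replicate 2, MACA 12 h replicate 1 or 3 or HBSS 12 h replicate 4. Without scaling 0 went up and 18 down, with the median of all genes at -0.66, and with median scaling 1 went up and 1 down, with a member median of 0.28 against 0.03 for all genes.

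Over all 10 comparisons, 18 members passed at least once and 24 never. The share of all genes that passed at least once was not counted, and 20.2% passed in MACA against HBSS at 12 h alone. Rpsa passed 4 times, always as the higher of treated over vehicle or of 12 h over 3 h.

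No member on the short lists for the stalk (Rplp0, Rplp2), Mdm2 binding, GAIT or NF-kB passed against HBSS after MACA in the reported fit. Rpl12, at the base of the stalk, was not on these lists and passed at 3 h, as given above. The stalk proteins Rplp0 and Rplp2 had log2 folds of -0.07 and -0.13 at 3 h and 0.21 and 0.18 at 12 h after MACA, and neither passed (limma adjusted p = 0.22 and 0.083 at 12 h). Rpl11 and Rps7, which bind Mdm2 and so stabilise p53 when ribosome assembly fails, had 0.18 (adjusted p = 0.062) and 0.07 (adjusted p = 0.60) at 12 h. With the control-ratio set as a term Rpl11 passed (0.31, limma adjusted p = 0.019) and Rps7 had -0.15 (adjusted p = 0.17). Rpl13a, released to the GAIT complex that silences inflammatory mRNAs in myeloid cells, had -0.09 (adjusted p = 0.46), and Rps3, a partner of NF-kB in the nucleus, -0.04 (adjusted p = 0.77). The intervals of all 6 at 12 h lay between -0.25 and 0.46. Of 6 measured genes on a short list for Diamond-Blackfan anaemia, which leaves out rarer ones such as Rps28, Rpl35 and Rpl27, Rps26 passed at 12 h, as given above.

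Of 7 paralogs and other relatives that the rule leaves out, 2 were lower at 12 h after MACA, or 28.6% against 20.2% of all genes. At 3 h 0 passed (2 at an unadjusted p under 0.05 in limma), against 8.12% of all genes. In every group 2 of the 7 lay under noise on all arrays. Rpl22l1, which can replace Rpl22, read 11.33, 11.04 and 11.12 after MACA and 11.49, 11.58, 11.60 and 11.39 after HBSS at 12 h, without overlap (-0.35 ± 0.089, limma adjusted p = 0.011). It was also lower after BSA (-0.39, adjusted p = 0.032). Rpl7l1 was lower after MACA (-0.27, adjusted p = 0.040) and BSA (-0.40, adjusted p = 0.029). The HBSS 12 h arrays serve both comparisons. Rpl22 itself had a fold of -0.26 at 12 h that did not pass, and its difference from Rpl22l1 was not tested.

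The other probe sets of the members were read as a check. In the fit over all 22626 probe sets, of which 17% passed in MACA against HBSS at 12 h, 14 further probe sets above noise belonged to members that passed. Of these, 12 had the sign of the brightest one, and none passed in the opposite direction in any comparison. Rpl41 had a second probe set that was higher (0.37, limma adjusted p = 0.017), while its one without an x suffix did not pass (0.36), and Rpl7 one that was lower (-0.37, adjusted p = 0.012). The 2 further probe sets of Rps28 had -0.13 and -0.10 and did not pass. Rps14 did not pass on its brightest probe set (0.01) and was lower on its other one (-0.23, adjusted p = 0.020).

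Rpl35 had both: one further probe set was higher (0.28, adjusted p = 0.033), and its only one without an x suffix and above noise read -0.06 (adjusted p = 0.64), the x marking probes that may bind other transcripts. Of the members, 12 were represented by such x probe sets. Of 96 ribosomal probe sets above noise with several symbols, 11 were higher and 10 lower at 12 h after MACA, with a median of 0.02. At 3 h 0 of them passed in limma, with a median of -0.09.

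Many genes that build ribosomes were higher after MACA. Of 42 ribosome biogenesis genes measured (Myc, nucleolar processing factors and RNA polymerase I subunits, a list unrelated in number to the 42 members), 19 were higher and 1 lower after MACA at 3 h, and 15 higher and 0 lower at 12 h, or 47.6% and 35.7% of the list against 8.12% and 20.2% of all genes. Their median log2 folds were 0.42 and 0.31, against -0.02 and 0.01 for the ribosomal proteins. Myc, a regulator of that programme, read 8.57, 8.84, 8.25 and 8.92 after MACA and 6.89, 6.64 and 6.45 after HBSS at 3 h, well apart (1.99 ± 0.41, limma adjusted p = 0.0064). Rrp12, an export factor of both subunits, read 7.12, 6.97, 7.39 and 7.37 against 5.99, 5.99 and 5.93, the latter near noise (1.24 ± 0.28, adjusted p = 0.013).

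Rrs1 (0.94), a 5S particle assembly factor, and Nop2 (0.82), an rRNA methyltransferase, followed at 3 h. After MACA, Nop2 read 8.07 and 8.03 in the high control-ratio set and 8.81 and 8.85 in the low set. The HBSS 3 h arrays, all of the high set, read 8.00, 7.49 and 7.39, and the part of the set in this fold was not tested. Nop10, of the pseudouridylation complex, was the one that fell (-0.32, limma adjusted p = 0.021). Its call was lost with the control-ratio set as a term, within the high set and with the groups fitted alone. It was also lost with the mean of all probe sets, and without MACA 3 h replicate 3 or 4 or HBSS 3 h replicate 1 or 3. At 12 h Nop56 (1.09), a core protein of box C/D snoRNPs, Bysl (0.89), Bop1 (0.67) and Ftsj3 (0.64), all processing factors, led. Nucleolin (Ncl) had 0.36 at 3 h and 0.03 at 12 h, and neither passed, and Myc at 12 h had 0.99 (adjusted p = 0.099).

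**Figure D5:**
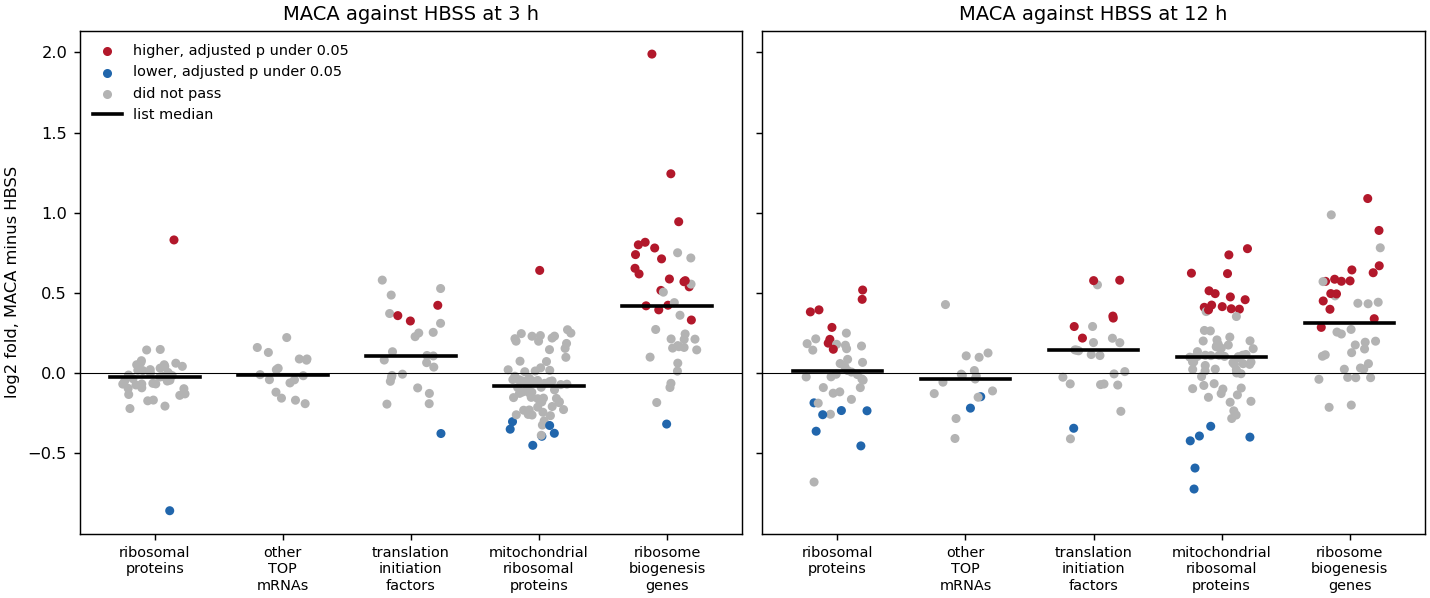
Log2 fold of each gene, MACA minus HBSS, at 3 h (left) and 12 h (right) for the ribosomal proteins and 4 related lists, with the list median as a black bar; red points are higher and blue points lower at an adjusted p under 0.05. The median of the biogenesis genes is 0.42 and 0.31, and that of the ribosomal proteins -0.02 and 0.01.

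After BSA at 3 h none of these genes passed. Myc read 8.31, 8.29 and 8.24 after BSA, above all HBSS arrays, with a log2 fold of 1.62 (limma adjusted p = 0.16), and Rrp12 had 1.07 (adjusted p = 0.18). The list's median after BSA was 0.30 with 0 of 42 passing in limma and 17 at an unadjusted p under 0.05, and the HBSS arrays are the same as in the MACA comparison. MACA directly against BSA at 3 h gave 1 higher and 0 lower with a median of 0.12, and at 12 h 6 higher and 1 lower with a median of 0.23. BSA against HBSS at 12 h gave 2 higher, Polr1a and Wdr43.

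The count at 3 h depended on single arrays. The 20 calls became 7 without HBSS 3 h replicate 3, 11 without MACA 3 h replicate 4, 12 without MACA 3 h replicate 3 or HBSS 3 h replicate 2 and 13 without HBSS 3 h replicate 1. The 15 at 12 h became 8 without MACA 12 h replicate 2. Within the high control-ratio set 10 were higher and 0 lower at 3 h, and with the set as a term 9 were higher and 1 lower at 12 h. Without scaling 0 passed at 3 h, and 0 were higher and 9 lower at 12 h.

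The nearest relatives of the ribosomal proteins by regulation, 17 other TOP mRNAs such as the elongation factors, also had a median near 0. Fau was on this list and also among the 7 relatives left out by the rule. The list further held the initiation factors Eif3e, Eif3f, Eif3h and Eif4b, so the lists are not wholly separate kinds of gene. None passed at 3 h in limma (2 at an unadjusted p under 0.05), with a median of -0.01, and at 12 h Eif3h (-0.22, adjusted p = 0.035) and Eef1a1 (-0.15, adjusted p = 0.045) were lower, with a median of -0.04. The count of 2 became 0 without MACA 12 h replicate 2 or HBSS 12 h replicate 1 or 3. It became 1 lower without MACA 12 h replicate 1 or 3 or HBSS 12 h replicate 4. Without HBSS 12 h replicate 2, 1 was higher and 0 lower. With the control-ratio set as a term, or with the 2 groups fitted alone, 0 passed. With median scaling, or with dim genes left out, 1 was higher and 0 lower, and without scaling 0 were higher and 15 lower. Of 26 translation initiation factors, 3 were higher and 1 lower at 3 h and 6 higher and 1 lower at 12 h, with Eif5 higher at both times (0.36 and 0.22). Of 74 mitochondrial ribosomal proteins, 1 was higher (Mrps18b, 0.64) and 6 lower at 3 h, while at 12 h 14 were higher, led by Mrps18b (0.78), and 6 lower, led by Mrps9 (-0.72). At 3 h and 12 h this was 15.4% and 26.9% of the initiation factors and 9.46% and 27.0% of the mitochondrial proteins, against 8.12% and 20.2% of all genes, and 0% and 11.8% of the other TOP mRNAs. The cytosolic and mitochondrial sets were not tested against each other.

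Markers of other cells moved in the same comparisons. Of 13 neutrophil markers, 7 were higher and 0 lower at 3 h and 6 higher and 0 lower at 12 h after MACA. Their summed normalized intensity was 7832 to 12042 after MACA and 1157 to 3604 after HBSS at 3 h, and 4569 to 8211 and 1871 to 3161 at 12 h. At 12 h, 6 of 10 B and plasma cell markers were higher, and 5 of 12 cardiac and skeletal muscle markers were lower, with sums of 6207 to 8270 after MACA and 11127 to 17770.5 after HBSS. Of macrophage markers, 2 of 11 were higher at 3 h and 3 higher and 1 lower at 12 h, and of T and NK cell markers 0 of 15 and 1 of 15 passed. Of 4 erythroid markers 0 passed at either time (0 at an unadjusted p under 0.05). The part of these cells in the ribosomal and biogenesis differences was not tested.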

How the data were processed

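Lung RNA was hybridised as biotin-labelled cRNA, per the labels' protocols. The authors deposited 1 linear intensity per probe set and array (22690 probe sets). Their summary method and scaling were not given in the sources used here. After 64 control probe sets were left out, intensities were quantile normalized, floored at 0 and taken as log2(intensity + 16). Of 22626 probe sets, 20380 had 1 symbol, 691 several and 1555 none. limma 3.58.1 (R 4.3.3) fitted 6 group means to 21 arrays (15 residual degrees of freedom) for 10 comparisons, after a test on simulated data. The number of arrays limits the precision. Noise (40.9) was set from the sizes of the negative normalized values, as a level that 95% of them stay under.

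Members, lists and tests were chosen with earlier results of these data known. The rule named, per comparison, up to 6 members with the highest and 6 with the lowest fold that passed, the 3 brightest, dimmest, steadiest and widest, role-list members that passed, and per other list up to 4 genes that passed with the largest change and 2 that did not. Named after their values were seen were Rplp0, Rpl11, Rps7, Rpl13a, Rps3, Rpl22, Rpl4, and Rps29 in the set comparison. So were Rps2, Rpl27 and Rps14 at 12 h, Nop10, Eif5 and the genes of several-symbol probe sets. Alternatives were other scalings, offset, filters and probe set choices, the technical set as a term or within sets, groups compared alone, a replicate block and leaving out each array. The coefficient of the technical set and the several-symbol probe sets were added after seeing the data. Figures used matplotlib 3.10.9.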

Additional observations from a re-analysis of the deposited data

Results flagged for a closer look

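In 129 tests of single arrays within the groups of 4 (42 members and their median in 3 groups), 5 arrays stood apart from the other 3 of their group by more than Dixon's critical share of the group's range for 4 samples, where chance gives about 1 in 20. Rpl10a was low in MACA 3 h replicate 4, at 12.48 against 12.58 to 12.59 (gap share 0.883). Rpl6 and Rpl7a were high in MACA 3 h replicate 3, at 12.75 against 12.47 to 12.51 (0.844) and at 13.12 against 12.97 to 12.98 (0.941). Rps25 was low in HBSS 12 h replicate 4, at 8.01 against 8.29 to 8.33 (0.885), and Rps4x was low in BSA 12 h replicate 3, at 12.84 against 12.90 to 12.91 (0.917).

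The MACA minus HBSS difference at 12 h minus that at 3 h passed the test of the interaction for 4 members: Rpl41 (0.61), Rpl35 (0.60), Rpl12 (-0.95) and Rps28 (-0.40).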

How the results depend on the processing

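Each count below is of members that passed. Without scaling, MACA against HBSS gave 0 at 3 h and 31 at 12 h, BSA against HBSS at 12 h gave 20, MACA against BSA gave 1 at 3 h and 0 at 12 h, 12 h against 3 h gave 40 after HBSS, 0 after BSA and 0 after MACA, and the interaction gave 18. With median scaling MACA against HBSS at 12 h gave 4, BSA against HBSS at 12 h 0, MACA against BSA at 12 h 0, time 4 after HBSS, 0 after BSA and 1 after MACA, and the interaction 2. Offset 64 gave 5 for BSA against HBSS at 12 h and 7 for the interaction. The mean of all probe sets of a gene gave 0 for BSA against HBSS at 12 h, 1 for MACA against BSA at 12 h, 4 and 0 for time after HBSS and BSA, and 0 for the interaction. Without x probe sets the counts were 9 (MACA against HBSS at 12 h), 1 and 1 (MACA against BSA at 3 h and 12 h), 3 and 1 (time after HBSS and BSA) and 2 (interaction). With the technical set as a term they were 9, then 8 for BSA against HBSS at 12 h, 1 and 1 for MACA against BSA, 3 and 1 for time after HBSS and BSA, and 1 for the interaction. Within the high set they were 1 (MACA against HBSS at 3 h), 1 and 0 (MACA against BSA at 3 h and 12 h) and 0 (time after BSA), and within the low set 0 (BSA against HBSS at 12 h). Groups compared alone gave 1, 0, 0, 0, 0 and 1 for MACA against HBSS at 3 h, BSA against HBSS at 12 h, MACA against BSA at 3 h and 12 h, and time after BSA and MACA. Leaving out dim genes gave 1 for MACA against BSA at 12 h. BSA against HBSS at 3 h gave 0 in limma under all of these (2 at an unadjusted p under 0.05 in the reported fit).

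Leaving out 1 array gave 0 to 2 and 6 to 13 for MACA against HBSS at 3 h and 12 h, 0 to 3 for BSA against HBSS at 12 h, 1 to 2 and 1 to 3 for MACA against BSA, 2 to 6, 0 to 3 and 0 to 4 for time after HBSS, BSA and MACA, and 0 to 4 for the interaction. For biogenesis genes it gave 7 to 20 and 8 to 17, and for other TOP mRNAs at 12 h 0 to 1.

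Without scaling all genes shifted with the array offsets (median -0.57 and -0.45 for MACA and BSA against HBSS at 12 h, 0.72 for time after HBSS, -0.66 for the interaction), which by construction moves each fold. Signs turned there for MACA against HBSS at 12 h in Rpl7a (-0.35), Rpsa (-0.30), Rpl35 (-0.21), Rps26 (-0.23), Rps25 (-0.20) and Rpl41 (-0.10), for BSA against HBSS at 12 h in Rps14 (-0.21), Rpsa (-0.15) and Rpl37a (-0.055), for time after HBSS in Rpl41 (0.23) and Rpl37a (0.33), and for the interaction in Rpl35 (-0.018) and Rpl41 (-0.041). With median scaling they turned for time after HBSS in Rpl7 (-0.015) and Rpl38 (-0.067). Without x probe sets they turned in Rpl35 (-0.061 at 12 h, -0.036 in the interaction) and Rpl41 (0.26 for time after HBSS, -0.30 in the interaction). The cause of the turns with median scaling or without x probe sets was not tested. Of the 37 named tests, offset 64 kept all 37 past the threshold in the same direction, the technical set 21 and groups compared alone 15.

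Replicate numbers share only a number (median correlation of same-numbered arrays 0.10, range -0.23 to 0.47). With the replicate block, MACA against BSA at 12 h gave 1, time after BSA 1 and the interaction 2, other TOP mRNAs at 12 h 4 and MACA against HBSS at 12 h 13.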

Other observations

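The array also carries control probe sets for the 18S ribosomal RNA itself, which were left out of the fit and are given as deposited intensities. The probe set for its 3′ part read 30.1 to 201 in MACA 3 h, 143 to 355 in BSA 3 h and 121 to 246 in HBSS 3 h. At 12 h it read 144 to 405 in MACA, 159 to 268 in BSA and 256 to 379 in HBSS. Its medians at 12 h were 208 in MACA and 319 in HBSS. Those of the 5′ part were 84.5 and 97.2, and those of the middle part 92.4 and 45.3, in the other order. These values were not scaled between arrays, and no difference in them was tested.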
